A study of Mus musculus with 28 samples.

Results

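The SoxB genes *Sox1*, *Sox2*, *Sox3*, *Sox14* and *Sox21* were taken by their symbols from the deposited table of read counts per gene, where they are 5 of 28244 rows, and were followed through all 28 RNA-seq libraries in 11 groups. The labels give the strain C57BL/6 for every sample, whereas the study's methods describe wild-type mice as CD1 or CD1 and C3H mixtures, to which the transgenic lines were bred. Donors were adults of 4 to 6 weeks or pups of postnatal day 1 to 5. In 5 groups of 2 samples the labels name no reporter line: Brain-NSC (neural stem cells, NSCs, from brain), Lung-pNSC and Tail-pNSC (peripheral NSCs, pNSCs, grown from lung and tail), and the cells of Lung and Tail themselves. This set of groups matches the one the study describes for Nes-GFP mice, which carry GFP under *Nestin* regulatory elements and whose sorted GFP+ cells from adult lung and postnatal tail were grown with EGF and bFGF, but the labels do not state it. Another 3 groups of 3 samples came from Wnt1Cre-mTmG mice, in which Cre from the *Wnt1* promoter switches a red membrane reporter to GFP in neural crest progeny: brain NSCs, Tail pNSCs and DRG pNSCs, the pNSCs from unsorted postnatal tail and dorsal root ganglia (DRG) and without the GFP label. DRG NCSCs, neural crest stem cells from adult wild-type ganglia (n = 3), are the neural crest reference beside them. The last 2 groups, of 3 samples each, were brain NSCs and lung pNSCs of Sox2-GFP mice, in which GFP is knocked in to report *Sox2*. In that line colonies formed from GFP+ cells alone, so that *Sox2* reporter activity was itself part of how those pNSCs were obtained. Whether the knock-in replaces the *Sox2* coding sequence of its allele is not given in the sources used here, so its part in the *Sox2* levels of that line was not tested. Colonies of pNSCs were picked singly, which limits a line to the descendants of 1 colony. Brain NSCs came from whole brain of adult or postnatal mice. The age for each brain NSC group is not given in the sources used here, so its part in comparisons with them was not tested. The study calls the samples of a group biological replicates without saying whether they are separate animals, lines or cultures of 1 line. Lines and experiments cannot be told apart where groups of different lines are set side by side.

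SoxB factors bind DNA through a high-mobility-group (HMG) box and usually act with a partner factor on a neighbouring site. *Sox1*, *Sox2* and *Sox3* form the SoxB1 branch, transcriptional activators that hold neural progenitors in an undifferentiated state. *Sox14* and *Sox21* form the SoxB2 branch, which act mainly as repressors and oppose SoxB1 factors at shared targets as neurons form. In adult brain, *Sox2* marks stem cells of the subventricular zone and hippocampus, and outside the nervous system it is also known from airway epithelium, while *Sox21* is also known from the hair follicle.

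Levels are given as CPM, counts scaled to an equal library size over all 28 libraries by TMM (trimmed mean of M values), and levels of different genes are compared only per kb of the gene's exons. Library totals were 9808246 to 22637031 counts, so that a count of 0 allows 0.131 to 0.294 CPM, a limit that covers counting error only. Of 6 NSC markers, 6 were at 1 CPM or more in every sample of the brain NSC and pNSC groups. Tail held 5 of 5 keratinocyte markers at that level, Lung 6 of 8 airway markers, and the NCSCs 7 of 7 Schwann and neural crest markers. These counts did not set each group apart. Tail also held 7 of 7 Schwann and neural crest markers, at a sum of 910 to 922 CPM against 4360 to 4440 CPM in the NCSCs. It held 5 of 8 airway markers as well, and the NCSCs held 5 of 6 NSC markers. NCSC replicate 3 stood apart from the others of its group, with squared differences of 17.2 and 21.5 times counting error against 1.09 to 2.82 for every other pair of replicates.

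SoxB genes are short, and the transcript of each that is shown here has a single exon. On GRCm38 with the GENCODE annotation, *Sox1* covers chr8:12395295-12400126 (+ strand, 4832 bases), *Sox2* chr3:34650405-34652461 (+, 2057 bases), *Sox3* chrX:60891366-60893430 (−, 2065 bases), *Sox14* chr9:99874106-99876170 (−, 2065 bases) and *Sox21* chr14:118233232-118237030 (−, 3799 bases). The 237 bases of coding sequence that spell the HMG box of each member are printed because they are what makes these genes one family and where their reads are most alike. Capitals mark the positions that are not the same in all 5 genes, and each run is written 5′ to 3′ on the coding strand, at chr8:12396505-12396741, chr3:34650536-34650772, chrX:60892771-60893007, chr9:99875433-99875669 and chr14:118235384-118235620 in the order printed.
Sox1: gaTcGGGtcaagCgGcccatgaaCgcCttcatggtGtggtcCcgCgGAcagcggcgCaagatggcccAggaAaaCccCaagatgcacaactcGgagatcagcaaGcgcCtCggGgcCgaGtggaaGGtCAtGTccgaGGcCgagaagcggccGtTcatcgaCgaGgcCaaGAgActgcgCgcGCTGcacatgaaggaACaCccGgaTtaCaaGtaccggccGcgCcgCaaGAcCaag
Sox2: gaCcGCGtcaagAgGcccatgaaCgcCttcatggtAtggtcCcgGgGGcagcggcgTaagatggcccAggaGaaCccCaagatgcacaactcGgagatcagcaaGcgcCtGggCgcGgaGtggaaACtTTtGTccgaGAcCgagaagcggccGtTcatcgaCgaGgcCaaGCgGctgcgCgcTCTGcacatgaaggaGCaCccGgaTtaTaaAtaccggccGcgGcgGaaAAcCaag
Sox3: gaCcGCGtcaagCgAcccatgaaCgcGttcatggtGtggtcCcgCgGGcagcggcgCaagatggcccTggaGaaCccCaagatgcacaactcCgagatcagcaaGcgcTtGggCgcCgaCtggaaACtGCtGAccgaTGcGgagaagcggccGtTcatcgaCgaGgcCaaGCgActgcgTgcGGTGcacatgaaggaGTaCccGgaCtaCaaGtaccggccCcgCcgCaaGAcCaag
Sox14: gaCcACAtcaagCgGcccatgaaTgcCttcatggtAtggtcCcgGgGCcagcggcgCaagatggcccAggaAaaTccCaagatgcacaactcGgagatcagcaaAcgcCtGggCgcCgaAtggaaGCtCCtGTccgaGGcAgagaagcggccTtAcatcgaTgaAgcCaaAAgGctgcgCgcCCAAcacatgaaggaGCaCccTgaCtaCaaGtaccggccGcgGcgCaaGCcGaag
Sox21: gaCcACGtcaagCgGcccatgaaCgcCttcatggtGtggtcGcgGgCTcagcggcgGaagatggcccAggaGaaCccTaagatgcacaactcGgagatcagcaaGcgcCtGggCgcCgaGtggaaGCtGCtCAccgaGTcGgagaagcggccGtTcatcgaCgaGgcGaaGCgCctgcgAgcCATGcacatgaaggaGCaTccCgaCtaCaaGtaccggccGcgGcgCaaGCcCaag

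Of these 237 positions, 177 (74.7%) hold the same base in all members, and 44 of the 60 that differ are the last base of a codon. Identity between any pair was 84.0 to 89.5%. The longest run shared exactly by a pair of transcripts was 19 to 45 bases, so that a longer read from the box carries at least 1 base that separates the genes. *Sox1* and *Sox2* lie inside introns of the long noncoding genes *Sox1ot* and *Sox2ot* on the same strand, with no exon in common, and 713 bases (18.8%) of *Sox21* are overlapped on the opposite strand by *Gm4675*, which has no row in the table. How the counting treated strand is not given in the sources used here, so reads from *Gm4675* and *Sox21* cannot be told apart.

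*Sox2*, the SoxB1 factor that keeps NSCs self-renewing, was high in every brain NSC and pNSC group. Its level was 333 and 326 CPM in Brain-NSC, 305 and 301 CPM in Lung-pNSC and 285 and 277.5 CPM in Tail-pNSC. In the Wnt1Cre-mTmG lines it was 317.5, 318 and 310.3 CPM in brain NSCs, 685, 675 and 686 CPM in Tail pNSCs and 209, 208 and 205 CPM in DRG pNSCs. The tail pNSCs of that line therefore held the highest *Sox2* of all groups and its DRG pNSCs the lowest among the 8 NSC and pNSC groups, a 3.29-fold range, with no sample of one overlapping the other. Sox2-GFP brain NSCs had 608, 580.3 and 581 CPM and Sox2-GFP lung pNSCs 290.2, 304 and 298 CPM. The NCSCs were at 236, 234 and 212 CPM, within the span of the pNSC groups and above the DRG pNSCs in every sample, although replicate 3 lay apart from the other two. Lung cells held 14.5 and 14.65 CPM and Tail cells 7.645 and 5.805 CPM, below every cultured sample. In the order of groups by *Sox2* under this scaling, Lung-pNSC and Sox2-GFP lung pNSCs were the only neighbours whose samples overlapped. Some neighbours lay close, with a ratio of means of 1.04 for Brain-NSC to Wnt1Cre-mTmG brain NSCs. Other scalings moved the levels by 0.938 to 1.12 times. Whether the orders and overlaps given for the members hold under them was not tested. In these bulk samples, fewer *Sox2*-positive cells and less *Sox2* RNA per cell cannot be told apart.

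*Sox3*, the X-linked SoxB1 gene of early neural progenitors, varied least between NSC and pNSC groups, over a 2.17-fold range. Tail-pNSC was highest, at 334 and 344 CPM, against 276 and 282 CPM in Brain-NSC and 205 and 199.7 CPM in Lung-pNSC. The Sox2-GFP pair overlapped, with 314, 300.4 and 302 CPM in brain NSCs and 304, 311 and 306 CPM in lung pNSCs. In the Wnt1Cre-mTmG lines *Sox3* was 198, 203 and 195 CPM in brain NSCs, 183, 183 and 190.0 CPM in Tail pNSCs and 156, 156 and 157 CPM in DRG pNSCs, so the Tail pNSCs, highest in *Sox2*, lay below their brain NSCs in *Sox3*. The NCSCs kept 14.5, 13.3 and 14.2 CPM, Tail cells 0.279 and 0.128 CPM, and Lung cells had no *Sox3* count. Lung-pNSC and Wnt1Cre-mTmG brain NSCs were the only other neighbours in the order that overlapped.

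*Sox1*, the SoxB1 gene most restricted to neural tissue, had the widest range among NSC and pNSC groups, 10.00-fold, against 1.23-fold among the 3 brain NSC groups alone. Brain NSCs held 56.8 and 53.7 CPM without a named line, 53.5, 50.7 and 47.7 CPM in Sox2-GFP and 42.7, 46.8 and 44.85 CPM in Wnt1Cre-mTmG. Among pNSCs the levels spread on both sides of these, from 8.94, 9.00 and 8.22 CPM in Sox2-GFP lung pNSCs and 12.4 and 14.8 CPM in Tail-pNSC to 85.0, 85.9 and 90.8 CPM in Wnt1Cre-mTmG Tail pNSCs. Lung-pNSC was at 39.9 and 36.8 CPM and DRG pNSCs at 23.0, 19.9 and 20.8 CPM. The tail pNSC groups thus stood near the bottom without a named line and at the top in Wnt1Cre-mTmG. NCSCs had 0.140, 0 and 0.294 CPM, and Lung and Tail cells had none, so only these 3 groups were not separated from one another.

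*Sox21*, the SoxB2 repressor that opposes SoxB1 factors, was highest in tail pNSCs of both lines, at 236, 237 and 232 CPM in Wnt1Cre-mTmG and 174 and 181 CPM in Tail-pNSC. Brain NSCs held 117 and 117 CPM without a named line, 160.1, 158 and 163 CPM in Sox2-GFP and 92.1, 85.8 and 85.4 CPM in Wnt1Cre-mTmG. Lung pNSCs were at 84.4 and 86.8 CPM without a named line and at 91.9, 88.2 and 88.7 CPM in Sox2-GFP. DRG pNSCs, the lowest of these groups, held 62.6, 66.3 and 65.8 CPM. *Sox21* was the only member whose level in Tail cells, at 92.1 and 90.6 CPM, lay within the span of the NSC and pNSC groups, and it overlapped Sox2-GFP lung pNSCs. NCSCs, at 0.420, 0.667 and 0.588 CPM, and Lung cells, at 1.01 and 0.549 CPM, overlapped each other, as did Sox2-GFP lung pNSCs with Wnt1Cre-mTmG brain NSCs, and the latter with Lung-pNSC. *Sox14*, the other SoxB2 gene, known from interneurons of brain and spinal cord, had 0 counts in all 28 libraries. It was therefore below 0.131 to 0.294 CPM in each and could not be tested.

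**Figure D1:**
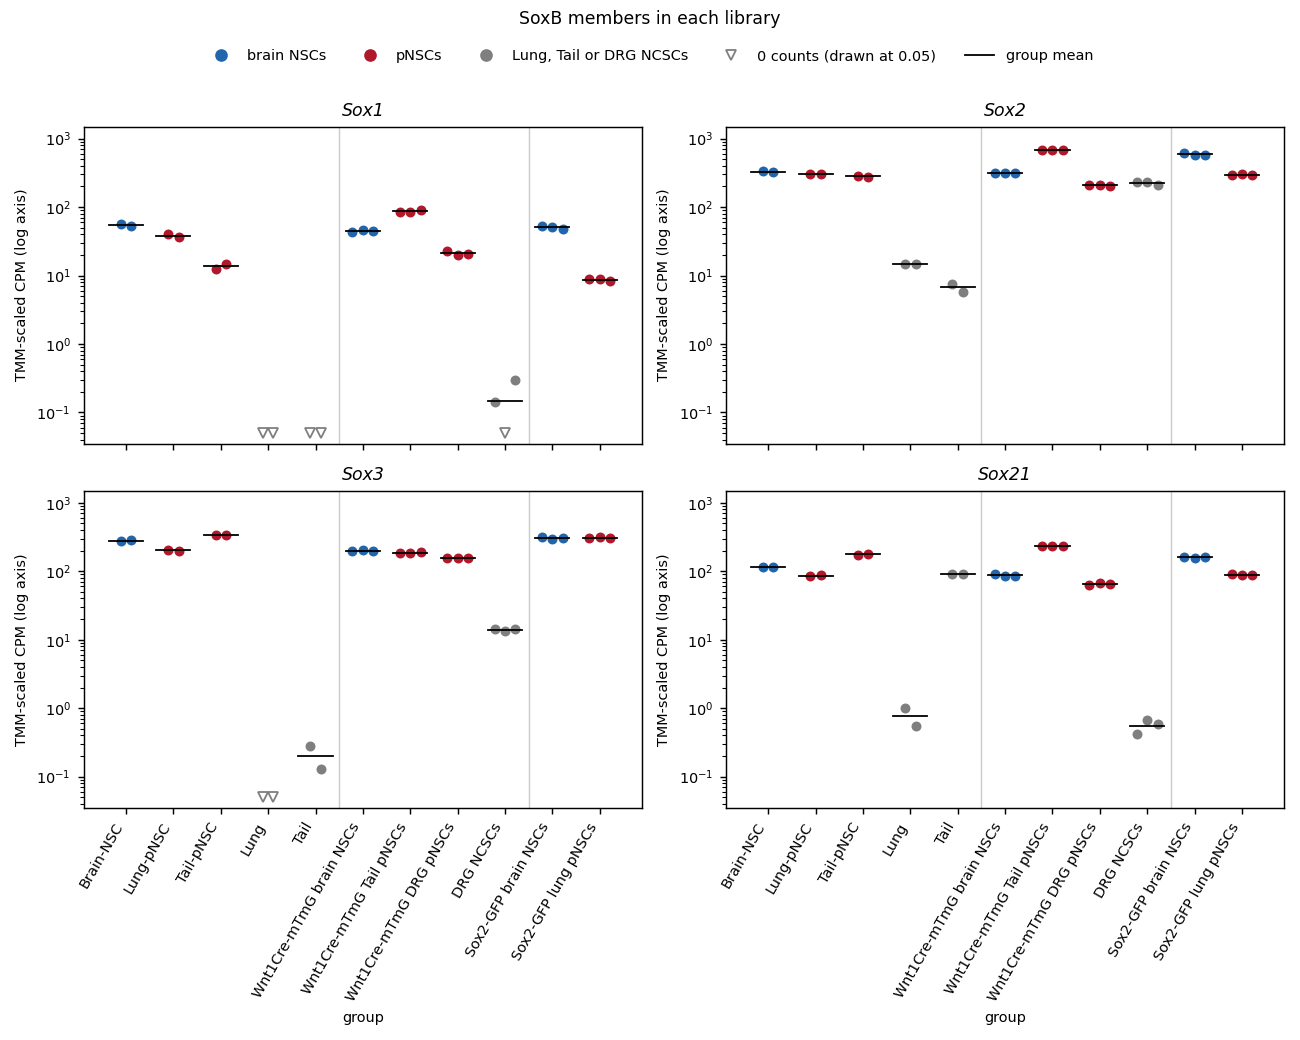
Level of each SoxB member in CPM (log axis as labelled) for the 11 groups on the x axis, with a point for each sample. *Sox2* and *Sox3* stay within 3.29-fold and 2.17-fold across the 8 NSC and pNSC groups, *Sox1* spreads over 10.00-fold, and Tail cells reach the level of NSCs in *Sox21* alone.

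Per kb of exon, the SoxB genes summed to 337 CPM per kb in Brain-NSC, 276 in Lung-pNSC and 350.4 in Tail-pNSC, against 27.4 in Tail cells and 7.30 in Lung cells. *Sox2* and *Sox3* together made up most of that sum in every NSC and pNSC group. *Sox2* contributed 47.4% ± 0.594 and *Sox3* 40.05% ± 0.714 in Brain-NSC (s.d., n = 2), whereas in Tail-pNSC the order was turned, with 39.0% ± 0.996 for *Sox2* and 46.9% ± 0.604 for *Sox3*. In Wnt1Cre-mTmG Tail pNSCs *Sox2* alone gave 66.15% ± 0.252 and *Sox3* 17.9% ± 0.286 (n = 3). The ratio of *Sox3* to *Sox2* per kb therefore ran from 0.271 ± 0.00518 in the tail pNSCs of one line to 1.20 ± 0.0462 in those of the other, and Sox2-GFP lung pNSCs were the only other group near 1, at 1.03 ± 0.0135. *Sox1* never passed 3.60% of the sum as a group mean. *Sox21* took 7.40 to 13.3% in NSCs and pNSCs, with the upper end again in the tail pNSCs of both lines, at 13.3% ± 0.297 and 12.35% ± 0.241.

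The groups that are not neural stem cells had other SoxB mixtures. In NCSCs 94.1% ± 0.466 of the sum of 117.5 CPM per kb was *Sox2* and 5.79% ± 0.439 was *Sox3*. In Lung cells 97.2% ± 1.15 was *Sox2*, and in Tail cells 87.8% ± 2.07 was *Sox21* (n = 2). Among all 20 Sox genes in the table, SoxB members held 46.2 to 60.7% of the summed CPM per kb in NSC and pNSC groups, 23.4% ± 1.04 in NCSCs (n = 3), 14.0% ± 0.512 in Tail and 2.57% ± 0.00284 in Lung (n = 2).

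**Figure D2:**
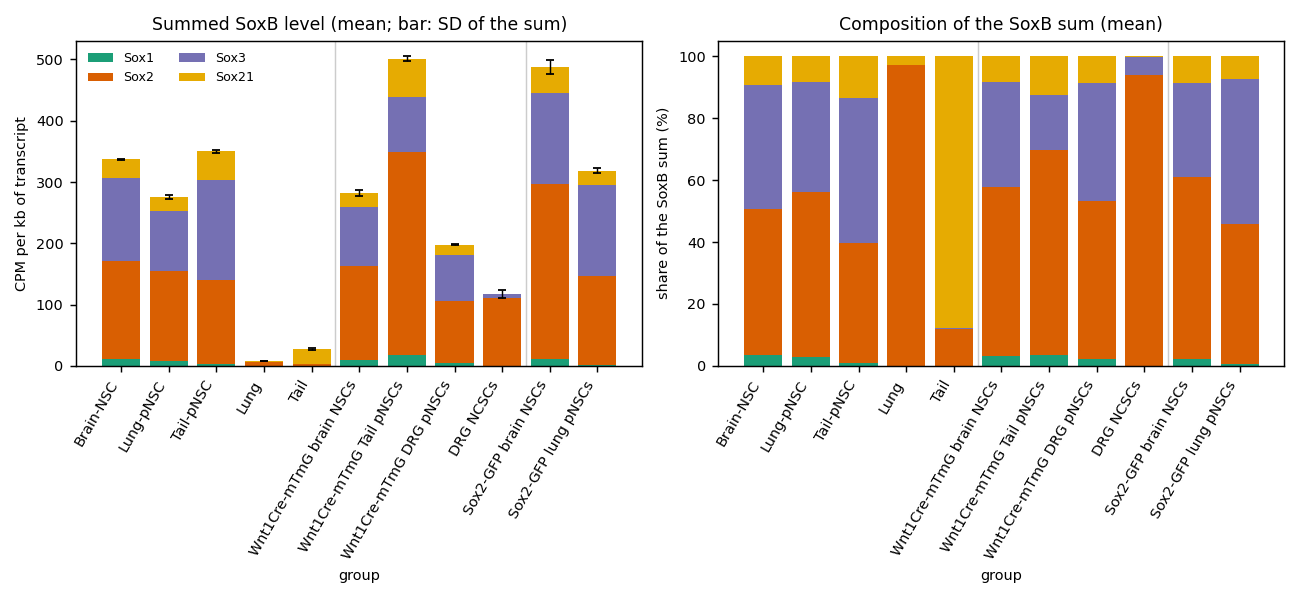
Share of each member in the summed SoxB level per kb, in percent, stacked for each of the 11 groups as the mean over its samples. *Sox3* is the largest share in Tail-pNSC (46.9%), *Sox2* in Wnt1Cre-mTmG Tail pNSCs (66.15%) and NCSCs (94.1%), and *Sox21* in Tail cells (87.8%).

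The comparison of each pNSC group with the brain NSCs that the study displays beside it addresses how far cells from peripheral tissue share the expression of brain NSCs. The sample titles name no experiment or batch. A gene was called at an adjusted p under 0.05 (edgeR's quasi-likelihood test, Benjamini-Hochberg over all genes of the fit) together with a log2 fold change of at least 1 in size. Of the members, 4 of 5 passed the filter on low counts in each fit. In Tail-pNSC against Brain-NSC 1 of these 4 was called, where 10.9% of all tested genes were: *Sox1* was lower, with a log2 fold change of −2.04 (SE 0.0862, adjusted p = 1.71e-121 by edgeR). *Sox2* was 0.25 lower (SE 0.0336), *Sox3* 0.26 higher (SE 0.0328) and *Sox21* 0.57 higher (SE 0.0404) on the log2 scale, differences that passed the p threshold, as did 49.1% of genes at any fold, without reaching the fold. In Lung-pNSC against Brain-NSC none of the 4 was called by edgeR or DESeq2, where 8.71% of genes were by edgeR, while 4 of 4 passed at an unadjusted p under 0.05 and 4 of 4 had an adjusted p under 0.05 at any fold, as did 40.3% of genes. There the log2 fold changes all lay below 0, at −0.55 for *Sox1*, −0.14 for *Sox2* (SE 0.0333, adjusted p = 6.87e-05), −0.49 for *Sox3* and −0.48 for *Sox21*, with SE from 0.0333 to 0.0720. Set against each other, Tail-pNSC had lower *Sox1* (−1.49, SE 0.0909) and higher *Sox21* (1.05, SE 0.0424) than Lung-pNSC, 2 calls of 4 where 12.9% of genes were called, and *Sox3* was 0.74 higher (SE 0.0339) without reaching the fold, where 53.3% of genes passed at any fold. If these are the study's Nes-GFP groups, the tail was postnatal and the lung adult, so age and tissue cannot be told apart.

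In the Wnt1Cre-mTmG lines, 2 of 4 members were called in Tail pNSCs against brain NSCs, where 18.2% of genes were. *Sox2* rose by 1.10 (SE 0.0374, adjusted p = 5.64e-14 by edgeR) and *Sox21* by 1.41 (SE 0.0434), while *Sox1* was 0.95 higher (SE 0.0734), just short of the fold limit, and *Sox3* 0.12 lower (SE 0.0358, adjusted p = 0.00796 by edgeR), and at any fold 65.5% of genes passed. Fibroblast markers summed to 375 to 388 CPM in these Tail pNSCs (5 of 5 at 1 CPM or more) and to 10.3 to 11.9 CPM in the brain NSCs. *Xist* was at 1108 to 1207 CPM against at most 0.193 CPM, which sets lines with and without *Xist* side by side. Neither was tested for its part in the result. Library totals were 19648349 to 22548268 counts in these Tail pNSCs and 9846360 to 11315870 in the brain NSCs. Whether they were sequenced together is not given, so a batch cannot be told apart from the origin of the cells. In DRG pNSCs 1 of 4 members was called, where 9.53% of genes were: *Sox1* fell by 1.07 (SE 0.0898). *Sox2* was 0.60 lower (SE 0.0387), *Sox3* 0.35 lower (SE 0.0371) and *Sox21* 0.44 lower (SE 0.0481), so the DRG line lay below brain NSCs in each tested member, and 45.9% of genes passed at any fold. *Xist* was at 142 to 146 CPM in these DRG pNSCs and at most 0.193 CPM in the brain NSCs. Its part in the result, that for the X-linked *Sox3* included, was not tested. Against DRG pNSCs, Tail pNSCs were higher in *Sox1* (2.02, SE 0.0819), *Sox2* (1.70, SE 0.0384) and *Sox21* (1.84, SE 0.0449), 3 of 4 calls where 18.0% of genes were called, and *Sox3* was 0.23 higher (SE 0.0363). The brain NSCs are shared by the first of these comparisons and the DRG comparison, so the values are not independent of each other.

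In Sox2-GFP lung pNSCs against their brain NSCs 1 of 4 members was called, where 15.7% of genes were: *Sox1* fell by 2.51 (SE 0.0643). *Sox2*, whose reporter was used to follow these cells, was 0.96 lower (SE 0.0199), just short of the fold limit, and under upper-quartile scaling it passed it. *Sox21* was 0.81 lower (SE 0.0283), and without the fold limit 3 of 4 members passed, as did 65.5% of genes. The *Sox3* difference was 0.03, with a 95% interval from −0.01 to 0.08 (adjusted p = 0.146 by edgeR), and its sign turned under upper-quartile scaling, at −0.026.

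**Figure D3:**
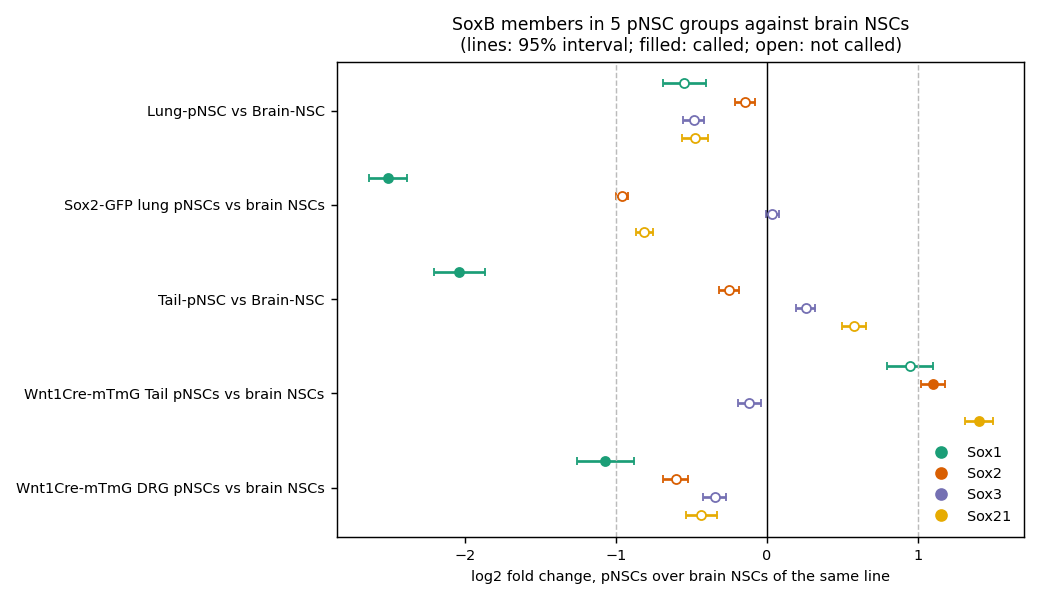
Log2 fold change of each tested member in each pNSC group against the brain NSCs that the study displays beside it, with bars for the 95% interval and lines at the fold limit. *Sox1* lies lowest in Sox2-GFP lung pNSCs (−2.51) and Tail-pNSC (−2.04), and in Wnt1Cre-mTmG Tail pNSCs *Sox2* (1.10) and *Sox21* (1.41) pass the limit upward.

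Whether pNSCs of one tissue differ from brain NSCs alike in 2 lines was tested in a fit over all 28 libraries, as the difference between both effects. For tail, 2 of 4 members were called, where 16.0% of genes were: the *Sox1* effect was 2.98 higher (SE 0.112) and the *Sox2* effect 1.35 higher (SE 0.0556, adjusted p = 8.27e-22 by edgeR) in Wnt1Cre-mTmG than in the line without a name. The *Sox21* effects, both upward, differed by 0.83 (SE 0.0584) and those of *Sox3* by −0.38 (SE 0.0499). *Xist* differed in the same contrast by 13.8 (SE 0.152), and its part in these differences, that for the X-linked *Sox3* included, was not tested. Fibroblast markers summed to 375 to 388 CPM in Wnt1Cre-mTmG Tail pNSCs and to 2.14 to 2.9 CPM in Tail-pNSC. Their part was not tested either. For lung, 1 of 4 was called, where 14.1% of genes were: the *Sox1* effect was more negative by −1.97 in Sox2-GFP (SE 0.114), and the differences were −0.83 for *Sox2*, 0.51 for *Sox3* and −0.35 for *Sox21* (SE 0.0490 to 0.0587). The 4 members thus differed between lines in both tissues at an adjusted p under 0.05 at any fold, as did 48.7% of genes for tail and 46.9% for lung. Age may also differ between the lung lines, since the study took postnatal lung for Sox2-GFP and adult lung for Nes-GFP, and it cannot be told apart from the line.

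Against cells of the tissues from which pNSCs were grown, SoxB1 genes were far higher in the pNSCs. In Tail-pNSC against Tail 3 of 4 members were called higher, where 46.7% of genes were called: *Sox2* rose by 5.27 on the log2 scale (SE 0.0621), *Sox1* was at least 75.9-fold higher than the limit of 3 counts per library in Tail, and *Sox3*, with 7 counts in Tail, was 1630-fold higher (95% counting interval 790 to 4050). *Sox21* was 0.86 higher (SE 0.0429) and did not reach the fold. In Lung-pNSC against Lung 4 of 4 were called higher, where 55.0% of genes were called. *Sox2* rose by 4.31 (SE 0.0527) and *Sox21* by 6.67 (SE 0.118). *Sox1* and *Sox3*, without counts in Lung, were at least 224-fold and 1180-fold higher. Sox2-GFP lung pNSCs against the same Lung libraries also gave 4 of 4 members higher, where 56.3% of genes were called, with *Sox2* up by 4.31 (SE 0.0433), *Sox21* by 6.76 (SE 0.104), *Sox1* at least 50.9-fold and *Sox3* at least 1790-fold. *Xist* stood at 648 and 685 CPM in Lung and at most 0.615 CPM in these pNSCs. The 2 groups thus differed in *Xist*, and whether their donors were matched is not given. These comparisons set a mixture of tissue cells against a culture: keratinocyte markers summed to 5320 to 5400 CPM and fibroblast markers to 72000 to 73500 CPM in Tail, and airway markers to 16200 to 16700 CPM in Lung. Their part in the results was not tested.

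DRG NCSCs, the neural crest stem cells, shared high *Sox2* with the pNSCs but hardly any other SoxB gene. Against Wnt1Cre-mTmG brain NSCs 3 of 4 members were called lower, where 36.9% of genes were called. *Sox21* fell by 7.29 (SE 0.0929) and *Sox3* by 3.83 (SE 0.0456) on the log2 scale, and *Sox1*, with 8 counts over the 3 NCSC libraries, was 332-fold lower (counting interval 168 to 771), whereas *Sox2* was 0.47 lower (SE 0.0378). Wnt1Cre-mTmG Tail pNSCs exceeded the NCSCs in 4 of 4 members, where 37.9% of genes were called, by 1.57 for *Sox2* (SE 0.0375), 3.71 for *Sox3* and 8.69 for *Sox21*, and 647-fold for *Sox1* (328 to 1500). DRG pNSCs came from ganglia of Wnt1Cre-mTmG pups, the NCSCs from ganglia of adult wild-type mice. These pNSCs exceeded the NCSCs in 3 of 4, where 38.3% of genes were called, by 3.48 for *Sox3* (SE 0.0460) and 6.85 for *Sox21* (SE 0.0973), and 158-fold for *Sox1* (79.9 to 368). Their *Sox2* was 0.13 lower than in NCSCs (SE 0.0384, adjusted p = 0.00479 by edgeR). Schwann and neural crest markers summed to 4360 to 4440 CPM in the NCSCs and to 17.8 to 18.2 CPM in DRG pNSCs. Fibroblast markers summed to 2810 to 3460 CPM in the NCSCs, with 5 of 5 at 1 CPM or more, to 15.3 to 17.0 CPM in DRG pNSCs and to 10.3 to 11.9 CPM in brain NSCs. *Xist* was at 286 to 333 CPM in the NCSCs and at most 0.193 CPM in brain NSCs. The part of either list, of *Xist*, of genotype or of age in these results was not tested.

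*Sox2ot* and *Sox1ot*, the noncoding genes around *Sox2* and *Sox1*, did not keep a fixed ratio to the genes they surround in every line. *Sox2ot* reads were 20.8% ± 0.409 of *Sox2* reads in Tail-pNSC, 6.47% ± 0.217 in Brain-NSC and 3.61% ± 0.246 in Lung-pNSC (s.d., n = 2). In Tail-pNSC *Sox2ot* rose by 1.43 on the log2 scale against Brain-NSC (SE 0.0806), where *Sox2* was 0.25 lower, and in Lung-pNSC it was 0.99 lower (SE 0.104), a value that passed the fold limit without Brain-NSC replicate 1 (−1.006) or without Lung-pNSC replicate 2 (−1.048). In the Wnt1Cre-mTmG lines *Sox2ot* reads were 11.85% ± 0.394 of *Sox2* reads in brain NSCs, 16.8% ± 0.313 in Tail pNSCs and 16.5% ± 0.334 in DRG pNSCs (n = 3). In Tail pNSCs it rose by 1.60 (SE 0.0532). In the Sox2-GFP pair the share hardly differed, at 3.12% ± 0.105 in brain NSCs and 3.01% ± 0.194 in lung pNSCs (n = 3). There *Sox2ot* was 1.01 lower (SE 0.0830) and *Sox2* 0.96 lower in the lung pNSCs. The *Sox2ot* effect in tail pNSCs did not pass the test of a difference between lines (0.17, SE 0.0945, adjusted p = 0.140 by edgeR), although that of *Sox2* did. *Sox1ot* moved with *Sox1* in direction in Tail-pNSC (−2.09, SE 0.287), DRG pNSCs (−2.77, SE 0.335), Sox2-GFP lung pNSCs (−3.70, SE 0.231) and, upward, in Wnt1Cre-mTmG Tail pNSCs (1.93, SE 0.157), each against its brain NSCs. In Lung-pNSC *Sox1ot* fell by 2.98 (SE 0.321), where *Sox1* was 0.55 lower, so that its reads were 1.62% ± 0.567 of *Sox1* reads there and 9.05% ± 0.826 in Brain-NSC. Low counts limit these values, since mean *Sox1ot* was 0.627 CPM in Lung-pNSC, 0.457 CPM in DRG pNSCs and 0.431 CPM in Sox2-GFP lung pNSCs. Tail cells, without a *Sox1* count, held 0.670 CPM.

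**Figure D4:**
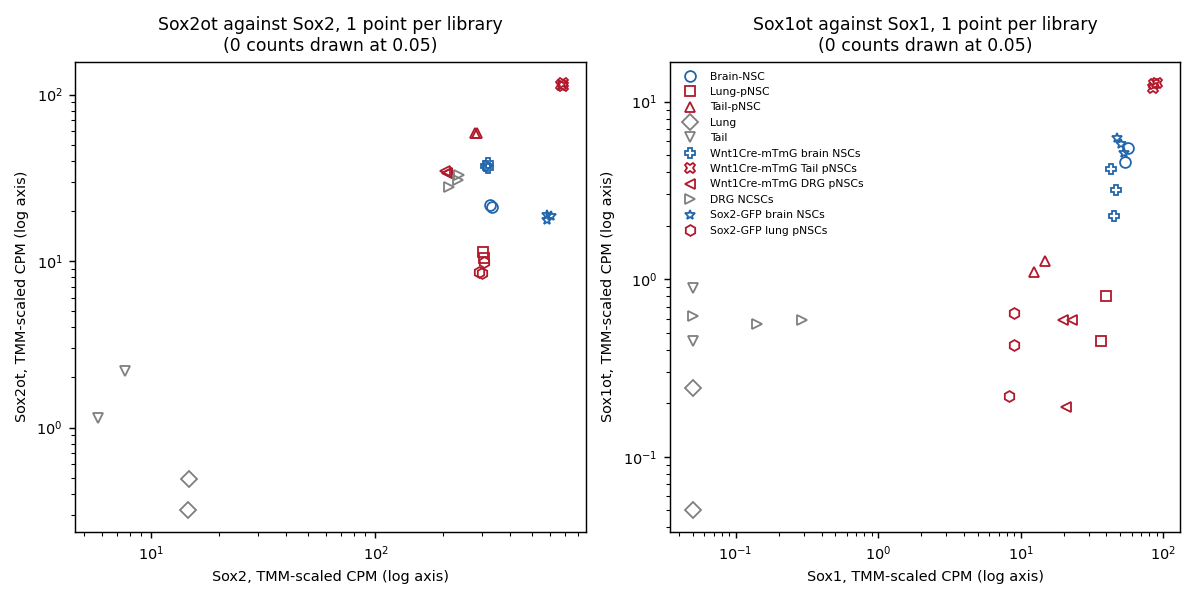
Levels of *Sox2* with *Sox2ot* and of *Sox1* with *Sox1ot* in CPM by group, with a point for each sample. *Sox2ot* reads are 20.8% of *Sox2* reads in Tail-pNSC and 6.47% in Brain-NSC, at *Sox2* levels that differ by 0.25 on the log2 scale.

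Factors known to bind DNA together with SoxB proteins (POU factors, *Pax6*, *Chd7*), 7 of 8 tested, were called in 2 of 5 pNSC groups against brain NSCs. None was called in Tail-pNSC, Lung-pNSC or DRG pNSCs against brain NSCs by edgeR or DESeq2, although 4, 4 and 3 had an unadjusted p under 0.05, with median log2 fold changes of −0.09, −0.16 and 0.03 against 0.00, 0.00 and 0.01 over all genes, of which 10.9%, 8.71% and 9.53% were called. In Sox2-GFP lung pNSCs the median was −0.49, with 7 of 7 lower at an adjusted p under 0.05 at any fold where 65.5% of genes passed. In Wnt1Cre-mTmG Tail pNSCs it was 0.44, with 4 higher and 2 lower. At the fold limit 2 of 7 were called in each, where 15.7% and 18.2% of genes were. In Wnt1Cre-mTmG Tail pNSCs *Pax6* rose by 1.05 and *Pou3f1* fell by 2.89, and in Sox2-GFP lung pNSCs *Pou3f1* fell by 1.56 and *Pou3f2* by 1.19. The NCSCs differed from brain NSCs in 5 of 7, against 36.9% of all genes, and *Pou3f3* fell by 9.30, *Pax6* fell by 6.67, *Pou3f4* fell by 3.33 and *Pou3f2* fell by 1.04, while *Pou3f1*, the POU factor of Schwann cells, rose by 1.27.

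Among 11 genes known as SoxB targets in neural progenitors, the number called in pNSCs against brain NSCs was 1 in Tail-pNSC (lower), 2 in Lung-pNSC (both lower), 2 in DRG pNSCs (both lower), 3 in Sox2-GFP lung pNSCs (1 higher, 2 lower) and 5 in Wnt1Cre-mTmG Tail pNSCs (3 higher, 2 lower). The shares of all genes called were 10.9%, 8.71%, 9.53%, 15.7% and 18.2% in that order, so the 1 of 11 in Tail-pNSC is near its share. Whether the other counts exceed theirs was not tested. *Nr2e1*, the nuclear receptor of forebrain NSCs also called Tlx, was in each of these counts as lower. It was at 40.7 and 38.8 CPM in Brain-NSC, 4.59 and 5.21 CPM in Lung-pNSC (log2 fold change −3.05) and without counts in Tail-pNSC, at least 243-fold lower. It was at 38.2, 39.4 and 38.7 CPM in Wnt1Cre-mTmG brain NSCs, with 3 counts in all in Tail pNSCs (824-fold lower, counting interval 281 to 4000) and none in DRG pNSCs (at least 139-fold lower). In Sox2-GFP it was 164-fold lower in lung pNSCs (89.0 to 343). *Nr2e1* thus separated brain NSCs from every pNSC group without overlap, while *Sox2* and *Sox3* did not fall with it to a like extent. *Ccnd1*, a driver of the cell cycle, went opposite ways in 2 lines, up by 2.69 in Sox2-GFP lung pNSCs and down by 2.16 in Wnt1Cre-mTmG Tail pNSCs, and in the latter the Notch receptor gene *Notch1* rose by 1.61 and the Notch effectors *Hes1* and *Hes5* by 1.21 and 1.05. *Hes5* fell by 1.28 in Sox2-GFP lung pNSCs. *Shh*, the remaining call in Lung-pNSC and DRG pNSCs, rested on 2 counts in each, 12.0-fold lower (2.99 to 104) and 7.77-fold lower (1.83 to 69.6). In the NCSCs 5 of 11 targets were called, where 36.9% of genes were, 1 higher and 4 lower than in brain NSCs: neither *Hes5* nor *Nr2e1* had a count there, which puts *Hes5* at least 144-fold and *Nr2e1* at least 253-fold below brain NSCs.

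The proneural genes, which SoxB1 factors are known to hold in check and which drive neurons to form, were called higher or not at all in pNSCs. *Neurod1* rose by 1.26 in Tail-pNSC, by 1.88 in Wnt1Cre-mTmG Tail pNSCs and by 3.88 in Sox2-GFP lung pNSCs, 1 of 4, 3 of 4 and 1 of 3 tested genes called in these comparisons and 0 of 4 in Lung-pNSC and DRG pNSCs by edgeR and DESeq2, with 1 of 4 at an unadjusted p under 0.05 in each. Over all genes 10.9%, 18.2% and 15.7% were called in the first 3 of these comparisons and 8.71% and 9.53% in the last 2. In the Tail pNSCs the low *Neurog2* and *Neurod4* were also higher, at 4.34, 3.86 and 4.21 CPM and at 3.85, 3.86 and 4.06 CPM, which is 23.1-fold (10.5 to 63.5) and 32.8-fold (12.6 to 121) over brain NSCs with 6 and 4 counts.

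**Figure D5:**
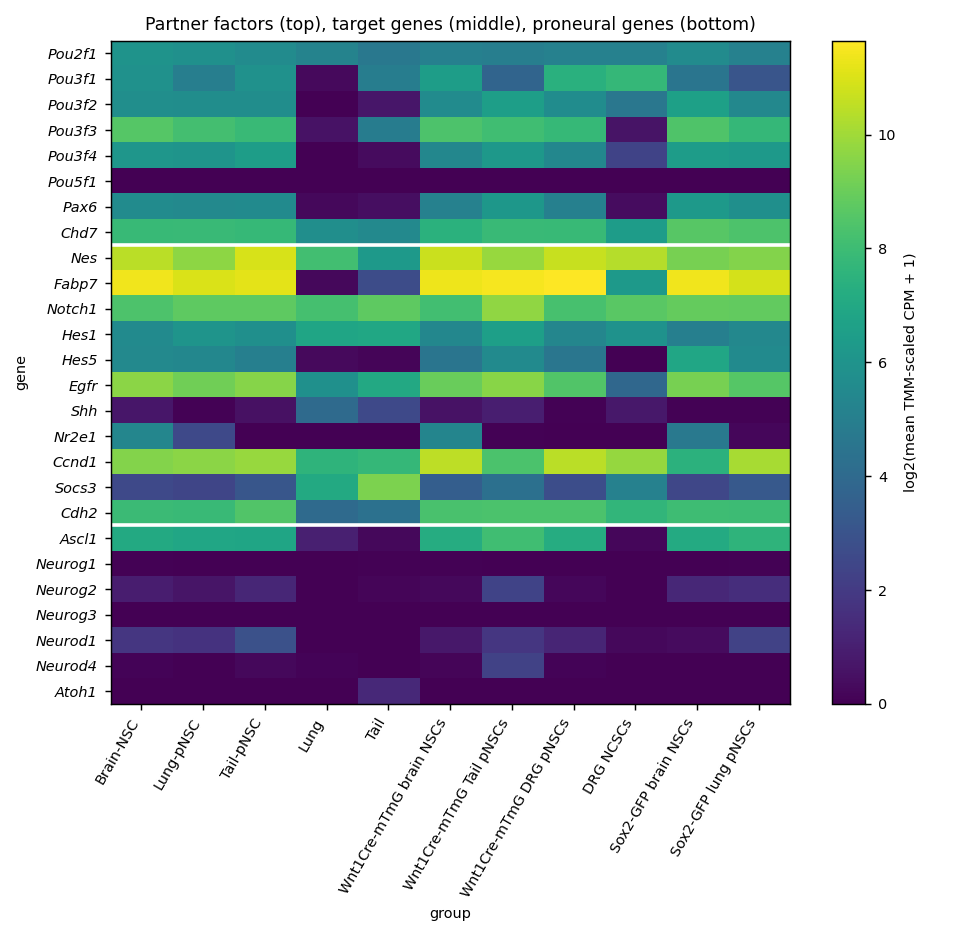
Level of each SoxB partner factor (top), SoxB target gene (middle) and proneural gene (bottom), with the groups on the x axis. Colour gives log2(mean CPM + 1) of the group. *Nr2e1* has no count in Tail-pNSC and DRG pNSCs, and neither *Nr2e1* nor *Hes5* has a count in the NCSCs.

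Within the Sox family, *Sox2* had the highest level per kb in most NSC and pNSC groups, with *Sox3* first in Tail-pNSC and *Sox8* first in Sox2-GFP lung pNSCs. In NCSCs *Sox10*, the neural crest and Schwann cell factor, stood above *Sox2*, and in Tail *Sox9* stood above *Sox21*. None of 13 tested Sox genes outside the SoxB group was called in Tail-pNSC or Lung-pNSC against Brain-NSC by edgeR or DESeq2. Over all genes 10.9% and 8.71% were called there by edgeR. Of the 13, 6 and 10 had an unadjusted p under 0.05 by edgeR. In Sox2-GFP lung pNSCs *Sox10* fell by 5.75, *Sox9* by 1.44 and *Sox4* by 1.13, and the low *Sox18* was 5.26-fold higher (counting interval 1.17 to 48.4) over 2 counts, in DRG pNSCs *Sox10* fell by 4.40, and in Wnt1Cre-mTmG Tail pNSCs *Sox10* fell by 1.01 while *Sox7* was 82.9-fold higher (22.8 to 687) over 2 counts in brain NSCs. In NCSCs 7 of 10 were called, where 36.9% of genes were, among them *Sox10*, which rose by 5.79, and *Sox8*, which fell by 5.64. In the other 3 pNSC comparisons 4 of 12, 1 of 10 and 2 of 10 were called, in the order given, where 15.7%, 9.53% and 18.2% of genes were.

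The genes most like each member in pattern were found by Pearson's r of log2(mean CPM + 1) over the 11 group means, among 16575 genes, a description in which points share libraries. They were *Hdhd2* (0.981), *Phf21b* (0.979) and *Oxnad1* (0.978) for *Sox1*, *Zfp81* (0.986), *Mettl4* (0.984) and *Zfp799* (0.982) for *Sox2*, *Cbx5* (0.996), *Puf60* (0.994) and *Ddx25* (0.993) for *Sox3*, and *Pdss2* (0.960), *Ephb1* (0.955) and *Robo1* (0.955) for *Sox21*. Between members r was 0.922 for *Sox2* with *Sox3*, 0.874 for *Sox1* with *Sox3* and 0.434 for *Sox2* with *Sox21*. Over the 8 NSC and pNSC groups alone, 0 of 3 of these genes stayed among the 3 nearest for any member. With a pseudocount of 10 over the 11 groups 0 of 3 stayed for *Sox1*, 2 for *Sox2* and 1 each for *Sox3* and *Sox21*, so the names depend on these choices.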

How the data were processed

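RNA-seq was made from poly-A RNA of 28 samples and read single-end. The authors aligned reads to GRCm38 with HISAT2 and deposited 1 table of raw read counts per gene symbol; per the labels, HTSeq and Cufflinks were also used, and no version stands in them. All columns were matched to samples by name. From these deposited counts, TMM factors, CPM and quasi-likelihood tests were computed with edgeR 4.0.16 in R 4.3.3, on genes kept by filterByExpr (minimum count 10, minimum total 15). Groups that the study displays together were fitted together, Lung also with the Sox2-GFP groups, and the 2 differences between lines were fitted over all 28 samples. A call needed a Benjamini-Hochberg adjusted p under 0.05 over all genes of the fit and a log2 fold change of at least 1, 2-sided. Fits were first run on simulated data of larger spread than the common spread fitted here. That run was a check of the code, not of error rates in these data. Against a group without counts, 3 counts per library set the bound, and with at most 10 counts a ratio with a 95% counting interval was given. Lengths are merged exons of the GENCODE annotation of GRCm38, from which the sequences were also read, with Python 3.11.15. Named are the 5 members, overlapping genes with a row, up to 3 called genes per list and comparison with the largest change, and the 3 genes most like each member; *Pou3f1* and *Pou3f2* in the NCSCs, *Hes1* and *Hes5* in Wnt1Cre-mTmG Tail pNSCs and *Sox4* were added after their values were seen. The members and lists were chosen with earlier results of these data known. Alternatives were DESeq2 1.42.0, upper-quartile scaling, other filters and samples in the fit, a replicate block, no fold limit, and leaving out each replicate. Totals of 9808246 to 22637031 counts limit the precision of low genes, and reads without molecular identifiers are not independent molecules. The study calls the replicates biological without saying whether they are separate animals, lines or cultures, so p-values measure only the spread between these samples. The values of 1 gene of the lists are not reported here.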

Additional observations from a re-analysis of the deposited data

Results flagged for a closer look

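The difference between lines in the effect of pNSC origin drew attention for each of the 4 tested SoxB genes, by a test of the difference itself (edgeR's quasi-likelihood test over all 28 samples, adjusted p under 0.05). For tail pNSCs against brain NSCs, the log2 effect in Wnt1Cre-mTmG minus that in the line without a name was 2.98 for *Sox1*, 1.35 for *Sox2*, −0.38 for *Sox3* and 0.83 for *Sox21*. For lung pNSCs, the effect in Sox2-GFP minus that in the line without a name was −1.97 for *Sox1*, −0.83 for *Sox2*, 0.51 for *Sox3* and −0.35 for *Sox21*. *Sox1*, *Sox2* and *Sox21* thus lay on one side and *Sox3* on the other in each tissue. Since 48.7% of all genes for tail and 46.9% for lung differed at the same p threshold, passing it does not set the members apart from other genes. Groups of 2 or 3 samples were not tested for outlying values of single genes, and over all genes NCSC replicate 3 stood apart from its group.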

How the results depend on the processing

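The number of SoxB members called stayed the same in 87 of 87 refits that left out a replicate, ranging from 1 to 1 in Tail-pNSC against Brain-NSC, and other than without the fold limit it moved in 1 of 103 alternatives. Without the fold limit it became 4 in both comparisons with Brain-NSC, in Tail-pNSC against Lung-pNSC, in both Wnt1Cre-mTmG comparisons with brain NSCs and in both differences between lines, and 3 in Sox2-GFP lung pNSCs against brain NSCs. In the last, upper-quartile scaling gave 2, because *Sox2* reached −1.02, and turned *Sox3* to −0.026 (adjusted p = 0.282 by edgeR). *Sox1ot* in DRG pNSCs against NCSCs ranged from −0.585 to 0.010 over refits without a replicate, the latter without DRG pNSC replicate 3, and the *Sox2ot* difference between lines in lung from −0.137 to 0.025, the latter without Lung-pNSC replicate 2, both of which had not passed the test before. *Sox2ot* in Sox2-GFP lung pNSCs fell short of the fold limit without the filter, at −0.987, and without any of 3 single replicates, at −0.991, −0.979 and −0.977; the cause was not tested. No other alternative changed a member's direction or side of the threshold. Replicate numbers did not pair samples (r from −0.0262 to 0.0247 over 45 pairs, where 0.1 was needed), and the fit with the replicate number as a block changed none of the 15 member counts and left 0.962 to 0.999 of the calls over all genes. Other scalings moved the levels by 0.938 to 1.12 times. *Sox14*, and *Sox1* and *Sox3* in tissue cells, are limited by depth to the bounds given.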
